A study of Mus musculus with 2 samples.

Results

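Cycling secretory progenitors are described here as the cells of the intestinal epithelium that carried transcripts of mitosis together with Atoh1, the transcription factor that commits gut progenitors to the secretory lineage. They were selected on measured values. A barcode had to carry at least 5 of 8 cycling genes (Mki67, Top2a, Birc5, Ube2c, Nusap1, Cenpf, Ccnb2 and Cdk1) and at least 1 unique molecular identifier (UMI, a count of 1 captured RNA molecule) of Atoh1. Defensin genes together with Lyz1 had to stay under 5% of its UMIs, which keeps out Paneth cells, and Cd3 genes of T cells had to be at 0. The gate held 347 of 12554 cells, 169 of 7401 in the wild type (WT) library and 178 of 5153 in the MG53-TG library.

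Stem cells at the crypt base give rise to rapidly dividing progenitors, which choose between an absorptive and a secretory fate. Notch signalling between neighbours governs this choice: a cell with active Notch induces Hes1, which represses Atoh1, whereas a cell that escapes Notch expresses Atoh1 and presents the ligands Dll1 and Dll4 to its neighbours. Atoh1 cells then become goblet, Paneth, enteroendocrine or, in part of current models, tuft cells, and most leave the cell cycle as they mature. Cells with both programmes therefore sit between the dividing compartment and the mature secretory cells.

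Both libraries came from mice with intestinal injury from 2.5% dextran sulfate sodium (DSS) in the drinking water, taken on day 7. One library was from WT littermates. The other was from MG53-TG mice, in which a transgene overexpresses mitsugumin 53 (MG53, also TRIM72, a protein of membrane repair encoded by Trim72) throughout the body. Intestinal crypts were dissociated with TrypLE, and 7-AAD negative, EpCAM positive cells were sorted, then captured using 10x Genomics 3′ chemistry of version 3. The study names several mice per genotype and describes the cells as CD45 negative too. The cells of a library cannot be assigned to animals from the files, and the age of the mice in these libraries was not given in the sources used here. Since each genotype had 1 library, no test between genotypes could be made, and genotype, library and processing cannot be told apart. All intervals below are 95% intervals that cover counting error only.

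In the whole filtered data, median depth was 14459 UMIs per WT cell and 18209 per MG53-TG cell, and 8 cell barcodes occurred in both libraries, 0 of them in the gate. Scores that flag possible doublets (2 cells in 1 droplet) were unevenly spread. The 438 WT and 212 MG53-TG cells with the highest scores included 64 of the 169 WT members (37.9%) and 40 of the 178 MG53-TG members (22.5%). Among cycling cells without Atoh1 the shares were 5.06% and 4.05%, and among Atoh1 cells outside the cycling gate 5.71% and 3.42%. The median depth of high-scoring members was 37280.5 UMIs (WT) and 39955 UMIs (MG53-TG), and that of the other members 24951 and 24722. Whether these barcodes hold 1 cell or 2 was not tested, and values without them are given beside several of the results.

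Atoh1 lies on chromosome 6 (mm10, 64729125 to 64731245, plus strand). Among the genes used to choose the cells, Atoh1 had 690 UMIs in WT members and 940 in MG53-TG members, or 132 and 179 counts per 1000000 UMIs (CPM), with a median of 3 and 4 UMIs per cell. All 8 cycling genes were present in 94 WT and 109 MG53-TG members, with Mki67 at 439 and 623 CPM, Top2a at 497 and 717, and Cdk1 at 153 and 167. At the border of the gate, 29 WT and 26 MG53-TG members carried exactly 5 cycling genes, and 28 and 15 cells with Atoh1 carried 4 and were left out. A single Atoh1 UMI placed 45 WT and 28 MG53-TG members in the gate. Ptprc, the leukocyte antigen CD45, had 7 and 1 UMIs over all members, and Epcam, the antigen of the sort, stood at 650.1 and 668 CPM.

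The data bear on 2 kinds of promoter, those of mitotic genes, which are read in late cell cycle, and those of secretory products. The promoters of 3 genes are shown, read from RefSeq on GRCm38.p6 (mm10), each 250 bases ending at the base before the annotated start, 5′ to 3′ on the strand of the gene. Top2a encodes the topoisomerase that untangles chromosomes (chr11:99024190-99024439, minus strand), Cdk1 the kinase that drives entry into mitosis (chr10:69352913-69353162, minus strand) and Muc2 the main mucin of goblet cells (chr7:141690090-141690339, plus strand). Capitals mark CCAAT, the letters bound by the factor NF-Y, TTTGAA, a cell cycle element of mitotic genes, and CAGCTG, an E-box form, on either strand.
Top2a: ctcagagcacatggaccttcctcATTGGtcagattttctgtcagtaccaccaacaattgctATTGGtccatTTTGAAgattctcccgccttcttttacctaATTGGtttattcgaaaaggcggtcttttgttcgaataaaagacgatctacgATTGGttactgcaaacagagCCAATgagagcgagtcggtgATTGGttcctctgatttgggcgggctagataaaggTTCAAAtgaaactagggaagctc
Cdk1: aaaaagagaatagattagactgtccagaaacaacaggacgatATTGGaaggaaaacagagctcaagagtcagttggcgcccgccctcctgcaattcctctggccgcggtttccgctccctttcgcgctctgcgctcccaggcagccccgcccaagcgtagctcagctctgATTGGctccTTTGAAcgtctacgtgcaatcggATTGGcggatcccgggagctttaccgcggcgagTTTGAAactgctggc
Muc2: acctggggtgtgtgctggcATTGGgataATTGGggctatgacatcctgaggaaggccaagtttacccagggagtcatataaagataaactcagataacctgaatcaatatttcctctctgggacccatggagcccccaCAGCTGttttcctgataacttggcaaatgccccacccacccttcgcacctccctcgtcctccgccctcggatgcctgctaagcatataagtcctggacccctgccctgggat
The Top2a window held 6 CCAAT and 2 TTTGAA matches, the Cdk1 window 3 and 2, and the Muc2 window 2 CCAAT and 1 CAGCTG match. CCAAT was present in 6 of the 8 cycling genes used by the gate, in 21 of 27 matched promoters of a list of 34 further G2 and M genes (77.8%) and in 5 of 17 matched promoters of a list of 29 goblet genes (29.4%), against 34.2% of all 27025 promoters. TTTGAA was present in 5 of the 8, in 18.5% of the 27 and in 5.88% of the 17, against 16.3% of all. CAGCTG was found in 1 of the 8, in 7.41% of the 27 and in 29.4% of the 17, against 12.9% of all. These matches describe letters only.

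The first comparison was how much of the dividing epithelium carried Atoh1 in each library. In WT, 169 of 980 cycling cells had an Atoh1 UMI (17.2%, exact binomial interval 14.9 to 19.8). In MG53-TG, 178 of 598 did (29.8%, interval 26.1 to 33.6). The difference was 12.5 percentage points (interval 8.10 to 17.0). Cycling cells without Atoh1 numbered 811 of 7401 filtered cells in WT and 420 of 5153 in MG53-TG. As a share of all filtered cells the members reached 2.28% in the WT library, with an interval of 1.96 to 2.65, while in MG53-TG they reached 3.45%, with an interval of 2.97 to 3.99. That difference was 1.17 points (0.565 to 1.80).

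**Figure D1:**
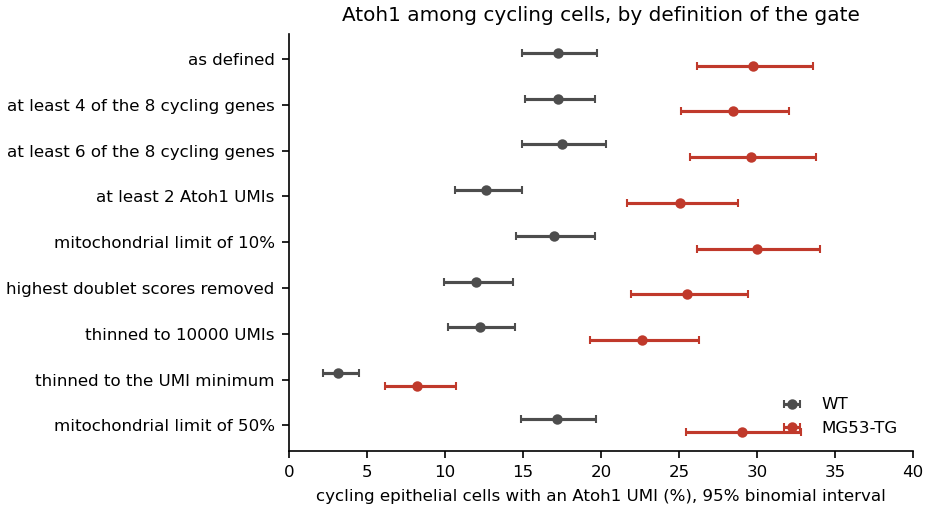
Share of cycling epithelial cells with an Atoh1 UMI (x axis, percent) under each definition of the gate (y axis), with 95% exact binomial intervals, WT in grey and MG53-TG in red, 1 library each. MG53-TG lay above WT in each of the definitions plotted, at 8.19% against 3.16% when every cell was thinned to 1354 UMIs and at 25.5% against 12.0% without high doublet scores.

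Depth bears on a share that rests on 1 UMI, so cells were thinned to equal numbers of UMIs. For the share of cycling cells with Atoh1, cycling genes were read at full depth and only Atoh1 after thinning. At 10000 UMIs per cell, with 46 WT and 15 MG53-TG cycling cells left out as too shallow, the shares were 12.2% and 22.6%. At 1354 UMIs, with 0 left out, they were 3.16% and 8.19%. Cells with 3 or more Cd3 UMIs, T cells that should lack Atoh1, had an Atoh1 UMI in 5.15% of 874 WT and 2.06% of 339 MG53-TG cells at median depths of 2895 and 3520 UMIs, and in 0.801% and 0.295% when thinned to 1354 UMIs. Without the high doublet scores the shares of cycling cells with Atoh1 were 12.0% (105 of 875) and 25.5% (138 of 541). The share of all filtered cells was also taken with the whole gate applied after thinning to 10000 UMIs. This left out 2713 WT and 1243 MG53-TG cells as too shallow. Members then made up 2.13% in WT and 2.89% in MG53-TG, 0.757 points apart (interval 0.0789 to 1.45). That share depended on the mitochondrial limit too. At 50%, an alternative chosen after the data were seen, WT stood at 1.78% and MG53-TG at 2.27%. These lay 0.485 points apart (interval 0.0578 to 0.922), whereas the share of cycling cells with Atoh1 differed by 11.9 points. Members numbered 170 and 178 at that limit, against 169 and 178 at 25%. Filtered cells rose from 7401 to 9539 in WT and from 5153 to 7850 in MG53-TG. Of barcodes with enough UMIs and genes, the 25% limit kept 66.3% in WT and 53.9% in MG53-TG.

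Goblet products separated the members from other cycling cells. A list of goblet genes took a median of 5.49% of the UMIs of a WT member and 6.40% of an MG53-TG member, against 0.122% and 0.112% in cycling cells without Atoh1 and 20.8% and 21.5% in Atoh1 cells with at most 1 cycling gene. At least 1% goblet UMIs was reached by 142 of 169 WT members (84.0%, interval 77.6 to 89.2) and 162 of 178 MG53-TG members (91.0%, interval 85.8 to 94.8). Only 2.47% and 1.90% of cycling cells without Atoh1 reached it, compared with 97.3% and 98.2% of the Atoh1 cells outside the cycling gate. Without high doublet scores, the members' medians were 4.92% and 6.24%, and 76.2% and 88.4% of members reached 1%.

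**Figure D2:**
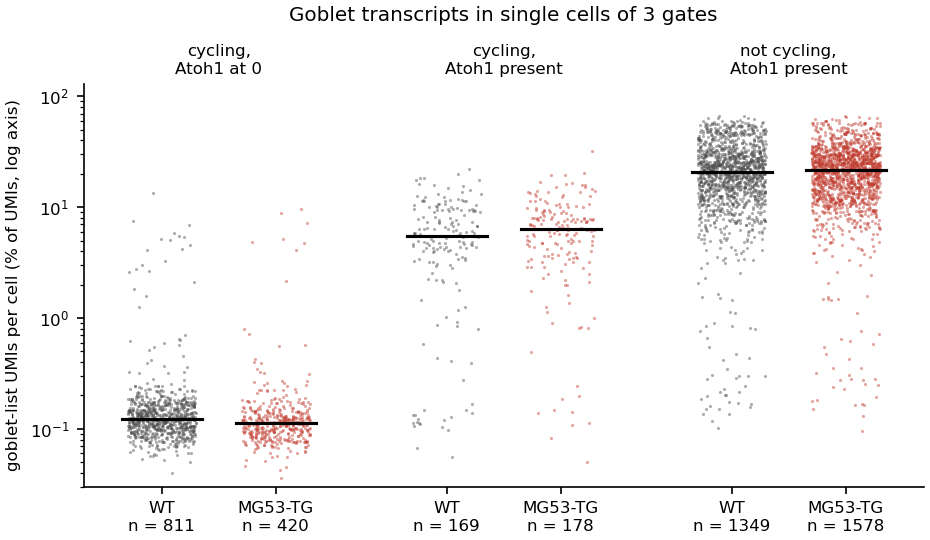
Goblet-list UMIs as a percent of all UMIs of a cell (log axis) in cycling cells without Atoh1, cycling secretory progenitors and Atoh1 cells outside the cycling gate, 1 dot per cell, with the median as a line, WT in grey and MG53-TG in red. Most members lay between the neighbouring gates, and 22 WT and 11 MG53-TG members lay under 0.5%, among the values of cycling cells without Atoh1.

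The members were not uniform. Under 0.5% goblet UMIs there were 22 WT and 11 MG53-TG members, of which 20 and 10 had a single Atoh1 UMI. T cells, which make no mucus, had medians of 0.237% and 0.227%. Members with 1 Atoh1 UMI had a median of 1.17% goblet UMIs in WT and 1.38% in MG53-TG, those with 2 to 4 had 5.18% and 7.06%, and those with 5 or more had 6.89% and 6.71%. Members with 5 or more Atoh1 UMIs made up 36.7% of WT and 48.9% of MG53-TG members. Goblet share and number of cycling genes did not run in 1 order: members with 5 cycling genes had medians of 9.31% and 7.66%, and members with all 8 had 5.25% and 6.18%.

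Gene levels were then compared within each library with cycling cells lacking Atoh1, on sums of UMIs scaled to CPM. A gene was counted as different when the log2 ratio of CPM plus 5 was at least 1 or at most -1 in both libraries. Of 5635 genes with enough UMIs, 232 (4.12%) were higher and 6 (0.106%) were lower in the members. The lower genes included Reg1, Nlrp6, Kcnq1ot1, Jaml and Olfm4. These gates differ by the presence of Atoh1, so the counts describe what goes with an Atoh1 UMI in a dividing cell and are no test.

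Of 28 goblet genes measured, 27 were higher in the members, where 4.12% of all genes were. Muc13, a membrane mucin singled out after its values were seen, was the exception at 1.75-fold in WT and 1.82-fold in MG53-TG. The 27 include Reg4, which is also on the enteroendocrine list. Of its UMIs in members, 581 of 775 in WT and 405 of 548 in MG53-TG lay in 1 barcode each. Tff3, a trefoil peptide that stabilises mucus, had 14862 CPM in WT and 16725 in MG53-TG members, 38.5-fold and 44.8-fold above cycling cells without Atoh1. Agr2, the disulfide isomerase needed to fold Muc2, had 5556 and 7932 CPM, 45.7-fold and 55.9-fold above. Muc2 itself stood at 3073 and 2384 CPM, 29.8-fold and 29.5-fold above. Spink4, a secreted peptide of goblet cells, Fcgbp, a protein of the mucus gel, and Clca1, a protease that loosens it, showed the same order. Spink4 was 32.5-fold and 44.6-fold above, Fcgbp 33.8-fold and 29.6-fold, and Clca1 43.5-fold and 28.5-fold. Several of these ratios were larger without high doublet scores, which were then left out of both gates. On the log2 scale of CPM plus 5, Agr2 went from 5.46 to 7.04 in WT and from 5.76 to 6.93 in MG53-TG, so that the order of the libraries turned. Spink4 went from 5.00 to 5.81 and from 5.45 to 6.31, and Tff3 from 5.25 to 5.83 and from 5.47 to 6.25. The level in the members themselves rose for Agr2, to 6601 and 8305 CPM. It fell for Fcgbp, to 6840 and 8376, and for Clca1, to 1283 and 1796. Among mature products, the gap to the Atoh1 cells outside the cycling gate was uneven: those cells exceeded the members by 6.53-fold and 6.11-fold for Zg16, a lectin of the mucus granule, but by 2.07-fold and 1.74-fold for Agr2. In that comparison 17 of 28 goblet genes were lower in the members in both libraries and 0 were higher, where of all 5586 genes 2.01% were lower and 9.88% higher.

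Secretory transcription factors were mostly above the level of cycling cells without Atoh1. Spdef, which drives goblet and Paneth maturation below Atoh1, had 63.8 and 82.1 CPM, 28.4-fold and 44.7-fold above cycling cells without Atoh1. Creb3l1, a membrane-bound factor of secretory cells, had 129 and 179 CPM, and its relative Creb3l4 had 49.7 and 73.3. Klf4, a factor of goblet differentiation and cell cycle arrest, stood at 229.6 and 323 CPM, 10.9-fold and 15.9-fold above cycling cells without Atoh1. Of 9 factors measured, these 4 with Foxa2 and Foxa3 were at least 2-fold higher and 0 lower, compared with 4.12% and 0.106% of all genes. Sox4, a factor of progenitor states, was the only 1 of 10 factors at least 2-fold above the Atoh1 cells outside the cycling gate, at 62.9 and 64.3 CPM against 16.4 in both libraries, a share of the list near the 9.88% of all genes.

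Notch ligands were above the level of cycling cells without Atoh1. The ligand Dll1 had 368 UMIs in 123 WT members and 532 in 152 MG53-TG members. Its CPM was 70.3 and 102, against 5.66 and 6.34 in cycling cells without Atoh1, and Dll4, the other ligand, was 19.2-fold and 24.7-fold above. With every cell at 10000 UMIs, Dll1 was detected in 81 of 162 WT and 108 of 174 MG53-TG members, against 33 of 772 and 22 of 409 cycling cells without Atoh1. The receptor Notch1 stood at 10.3 and 8.78 CPM against 18.5 and 23.2, with counts under the minimum for the count of genes. Hes1, the Notch target that represses Atoh1, stood at 40.1 and 32.6 CPM against 56.3 and 60.9. Hes6, which opposes Hes1, was 2.24-fold and 2.62-fold above cycling cells without Atoh1. Of 7 Notch genes measured, Dll1, Dll4 and Hes6 were at least 2-fold higher and 0 lower (4.12% and 0.106% of all genes), with Hes1, Mib1, Adam10 and Rbpj in neither class. Dll1 in the members was close to the level of non-cycling Atoh1 cells, 70.3 against 89.6 CPM in WT and 102 against 99.5 in MG53-TG.

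Proliferation genes that the gate did not use were compared with those of other dividing cells. Of 33 G2 and M genes, 0 differed 2-fold from cycling cells without Atoh1, where 4.12% of all genes were higher and 0.106% lower. Their median log2 ratio was -0.09 in WT and 0.11 in MG53-TG, or 0.18 and 0.39 without high doublet scores. The S phase genes had medians below 0 in both libraries, -0.44 and -0.23, although 0 of 25 differed 2-fold, against the same shares of all genes. They took a median of 0.0826% of the UMIs of a WT member and 0.0985% of an MG53-TG member, against 0.123% and 0.120% in cycling cells without Atoh1. Pclaf, a partner of the replication clamp, had 254 and 296 CPM in members against 321 and 355. Against non-cycling Atoh1 cells, 32 of 32 G2 and M genes and 23 of 24 S phase genes were at least 2-fold higher, where the background over 5586 genes was 552 higher (9.88%) and 112 lower (2.01%). Both cycling gates required the same mitotic transcripts, so the closeness of their G2 and M genes was largely set by the selection and is no test. The contrast with non-cycling Atoh1 cells is likewise a description of the gate.

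Genes of cell cycle exit were measured in the same cells. Btg2, an antiproliferative gene, had 93.6 and 81.1 CPM, 2.59-fold and 2.31-fold above cycling cells without Atoh1 and below non-cycling Atoh1 cells, which had 175 and 186. Mxd4, an antagonist of Myc, was 3.21-fold and 3.19-fold above the cycling cells. Cdkn1a, the inhibitor p21, had 530 UMIs over WT members and 552 over MG53-TG members, and its CPM lay between that of cycling cells without Atoh1 (44.0 and 59.7) and that of non-cycling Atoh1 cells (225 and 271). Of 12 genes in the list, Btg2 and Mxd4 were at least 2-fold above the cycling cells in both libraries and 0 were lower, where 4.12% and 0.106% of all genes were. Ccnd1, the cyclin of G1 entry, showed the reverse order in both libraries, with 120.2 and 119 CPM in members against 199 and 167 in cycling cells without Atoh1 and 68.1 and 68.6 in non-cycling Atoh1 cells.

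Stem cell genes as a list lay near the level of other dividing cells, with median log2 ratios of -0.09 in WT and 0.02 in MG53-TG, or 0.13 and 0.14 without high doublet scores. Olfm4, a secreted marker of the crypt base in the small intestine, had 316 CPM in WT and 424 in MG53-TG members against 807 and 1138 in cycling cells without Atoh1, and 32.2 and 3.69 in non-cycling Atoh1 cells. It was the only 1 of 12 stem genes measured that was 2-fold lower in both libraries, and 0 were 2-fold higher. Of all genes, 0.106% were lower and 4.12% higher. Dmbt1, a secreted scavenger of the crypt and among the genes with the lowest ratios, had 1904 and 1013 CPM against 3663 and 3101. Lgr5, the receptor that marks crypt base stem cells, had 11 and 22 UMIs in 9 and 12 members, too few to be counted. At 10000 UMIs per cell it was detected in 2 of 162 and 6 of 174 members, against 31 of 772 and 31 of 409 cycling cells without Atoh1. Ascl2, a transcription factor of these stem cells, was detected in 9 and 5 members at that depth, against 105 and 71 cycling cells without Atoh1. Cdca7, a replication gene listed with stem genes, had 44.1 and 52.7 CPM against 87.4 and 103. Kit, a receptor of growth factor signalling found on secretory cells of the crypt, had 50.8 and 93.9 CPM against 2.85 and 5.66 in cycling cells without Atoh1, a log2 ratio with CPM plus 5 of 2.83 and 3.21, or 3.52 and 3.89 without high doublet scores.

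**Figure D3:**
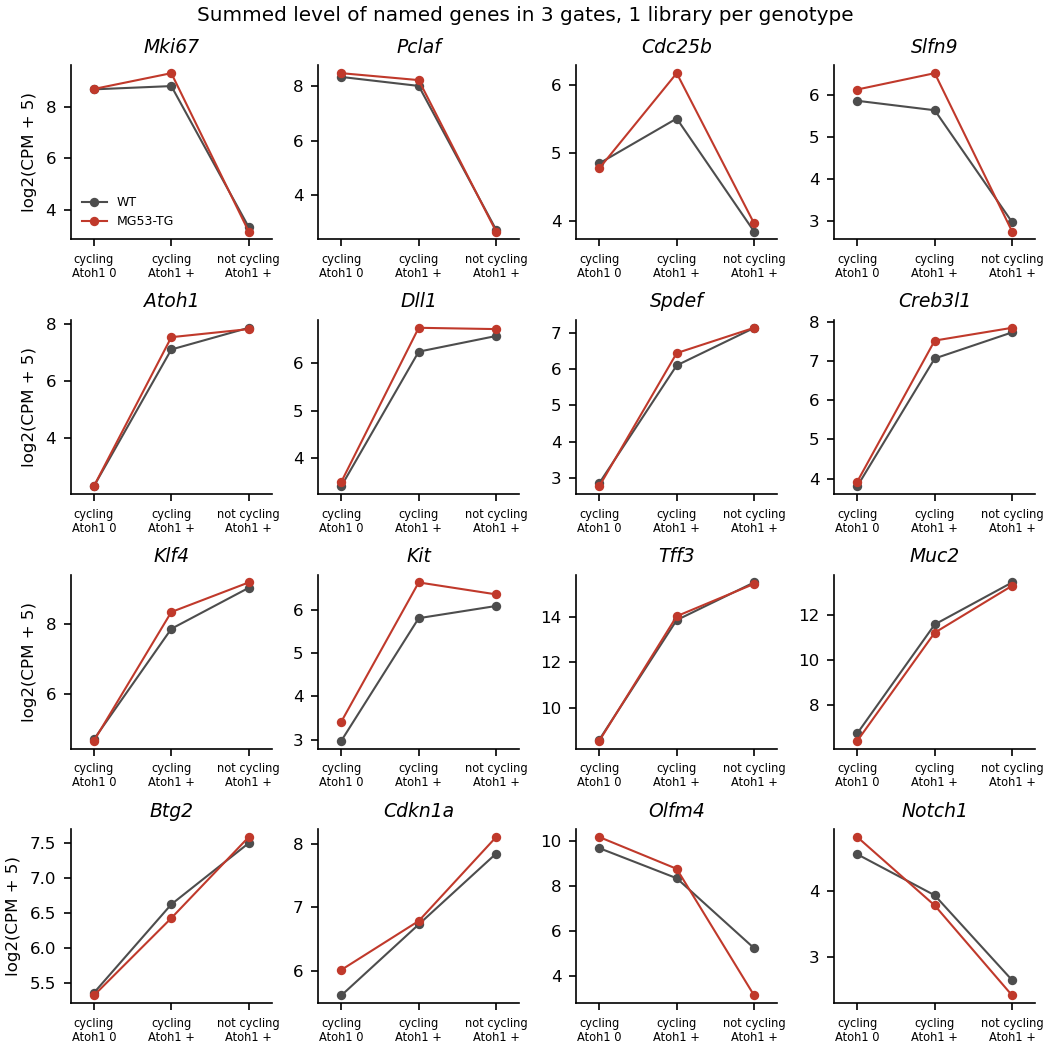
Level of 16 genes as log2 of summed CPM plus 5 (y axis) in cycling cells without Atoh1, cycling secretory progenitors and Atoh1 cells outside the cycling gate (x axis), WT in grey and MG53-TG in red, 1 value per library. Dll1 and Kit were near the non-cycling level and Pclaf near the cycling level, Mki67 and Atoh1 were used to define the gates, and Muc2, Tff3, Btg2, Olfm4 and Notch1 lay between the other gates.

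Few genes were highest in the members. Of 5243 genes with at least 20 CPM in members of both libraries, 4 (0.0763%) were at least 1.5-fold above both other gates in both libraries, a rule set after the data were seen. They were Reg4, Gm20559, Cdc25b and Chgb. Cdc25b, the phosphatase that activates Cdk1 before mitosis, had 40.5 and 67.4 CPM in members, 23.8 and 22.3 in cycling cells without Atoh1 and 9.31 and 10.5 in non-cycling Atoh1 cells, with UMIs in 85 and 113 members. Reg4 and Chgb, genes of enteroendocrine cells, rested on few barcodes: 1 WT barcode carried 581 of 775 Reg4 UMIs, and 1 MG53-TG barcode carried 564 of 578 Chgb UMIs. Without high doublet scores, the log2 ratio of Chgb over cycling cells without Atoh1 was -0.82 in WT and 4.15 in MG53-TG, so Chgb no longer met the rule.

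Markers of enteroendocrine and tuft cells were concentrated in few members. At least 10 UMIs of Chga and Chgb, granins of enteroendocrine cells, occurred in 5 WT members, 4 of which had high doublet scores, and in 1 MG53-TG member. Neurog3, the factor that starts the enteroendocrine fate, had 0 UMIs in 169 WT members, where the floor of 3 counts taken here for a count of 0 allows up to 3 UMIs, and 4 UMIs in 2 MG53-TG members. Tuft genes other than Sox9 reached 10 UMIs in 5 WT members, 4 with high scores, and in 2 MG53-TG members. Paneth products outside the gate's limit were present in both libraries: Itln1, an intelectin, stood at 675 and 668 CPM and Mmp7, the protease that activates defensins, at 377 and 352. Of 8 such genes measured, 8 were at least 2-fold above cycling cells without Atoh1, where 4.12% of all genes were. Against non-cycling Atoh1 cells 6 of 10 were at least 2-fold lower and 0 higher, where 2.01% and 9.88% of all genes were. Of 5 enteroendocrine genes measured, Chga, Sct and Reg4 were at least 2-fold above cycling cells without Atoh1 in both libraries, and Chgb and Gip were not, where 4.12% of all genes were. For Chga 179 of 190 MG53-TG UMIs lay in 1 barcode, without which its level was 2.10 CPM against 3.21 in cycling cells without Atoh1, and its WT log2 ratio was 0.05 without high doublet scores. A list of 18 T cell genes gave 84 and 51 UMIs over all members, with 4 of the genes at 0 in both libraries.

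The second comparison set MG53-TG against WT within the members. Trim72 (chromosome 7, 128003949 to 128011033, plus strand) checks the labels. It had 2 UMIs in 2 WT members and 110 UMIs in 58 MG53-TG members, or 0.382 and 20.99 CPM, a log2 ratio of CPM of 5.78 (interval 3.89 to 8.84). Sums were 5234477 UMIs over WT and 5240644 over MG53-TG members. Of 5866 genes with at least 30 UMIs in total and 20 CPM in 1 library, 10 (0.17%) were at least 2-fold higher in MG53-TG and 31 (0.528%) at least 2-fold lower, on the log2 scale of CPM plus 5. The median over these genes was 0.08, and 62.9% lay above 0.

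Single barcodes carried several of these ratios. Igkc, the light chain of antibodies, had 6941 UMIs in MG53-TG members, 6932 of them in 1 barcode, which also carried 866 of 871 Igha and 352 of 353 Jchain UMIs. Gip, a gut hormone, had 1693 UMIs in WT members, 1084 of them in 1 barcode, and 48 in MG53-TG. Leaving out the highest barcode of each gene in each library, an alternative chosen after the data were seen, 7 of the 10 higher and 29 of the 31 lower genes kept a 2-fold ratio, whatever their remaining level. Leaving out the members with high doublet scores instead, 7 and 13 kept it. The tuft genes Rgs13 and Alox5ap were among those lost, each with a log2 ratio of 0.08 once the high scores were left out. The median of 4 tuft genes turned from -2.10 to 0.10 and that of 5 enteroendocrine genes from -0.83 to 1.48. Without the highest barcodes instead, these medians were -1.51 and -2.69. For Chga and Chgb, 743 of 768 UMIs in MG53-TG members lay in 1 barcode, which had no high doublet score. Under both alternatives 4 higher genes kept a 2-fold ratio, namely Hyou1, Soat1, Trim72 and Gm42047. So did 13 lower genes.

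Among the 31 genes at least 2-fold lower in MG53-TG, antimicrobial lectins had the highest levels. Reg3b, a secreted lectin that acts on gut bacteria, had 33719 UMIs over WT members and 10252 over MG53-TG members, 6442 and 1956 CPM, a log2 ratio of -1.72 (interval -1.75 to -1.69). Reg3g, a related lectin also on chromosome 6, had 3359 and 1194 CPM, a log2 ratio of -1.49 (interval -1.53 to -1.45). Without high doublet scores the ratios were -1.46 and -1.36 on the CPM plus 5 scale. The corresponding ratios were -1.19 and -1.10 in cycling cells without Atoh1 and -0.22 and -0.29 in non-cycling Atoh1 cells, so the direction was shared by the 3 gates and the size was not. Of 6 antimicrobial and inflammatory genes measured, 3 were 2-fold lower, where 0.528% of all genes were, these lectins and Lcn2, an iron-binding defence protein with 196 and 35 UMIs in 35 and 9 members. Without high doublet scores Lcn2 had a ratio of -0.92.

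Defensin transcripts were lower in MG53-TG too, for some of the genes that the gate itself limits. Defa30 had 244 CPM in WT and 57.4 in MG53-TG members, a log2 ratio of -2.09 (interval -2.27 to -1.90), and Defa21 had 294 and 26 UMIs. Defa24, at higher levels, stood at 3367 and 2963 CPM. In cycling cells without Atoh1, Defa30 stood at 158 and 60.3 CPM. Defensin genes are near copies of each other and the tables came from different program versions, so the split of reads among them is uncertain.

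Muc3, a membrane mucin of the brush border, had 464 UMIs in 105 WT members and 155 in 59 MG53-TG members, a log2 ratio of -1.58 (interval -1.86 to -1.32), and -1.74 with CPM plus 5 once high scores were left out. Absorptive transcripts as a list had a median log2 ratio of -0.37 over 19 genes. Of the 19, 3 lay above 0, where 62.9% of all genes did. Fabp1 and Fabp2, among the highest of the list in level, were above 0, at 0.29 and 0.32 on the CPM plus 5 scale. Fabp1 had 1012 CPM in WT and 1238 in MG53-TG members, and Fabp2 had 1069 and 1333. Without high doublet scores their ratios were -0.14 and 0.30, and the list median was -0.44. Apoa1, an apolipoprotein made by enterocytes, had 747 and 304 CPM, a log2 ratio of -1.30 (interval -1.38 to -1.21), which was -0.90 on the CPM plus 5 scale without high scores. Apoa1 and Apoa4 together reached 10 UMIs in 37 WT members, 24 of which had high doublet scores, and in 21 MG53-TG members, 11 with high scores. The part of doublets in these ratios was not tested.

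**Figure D4:**
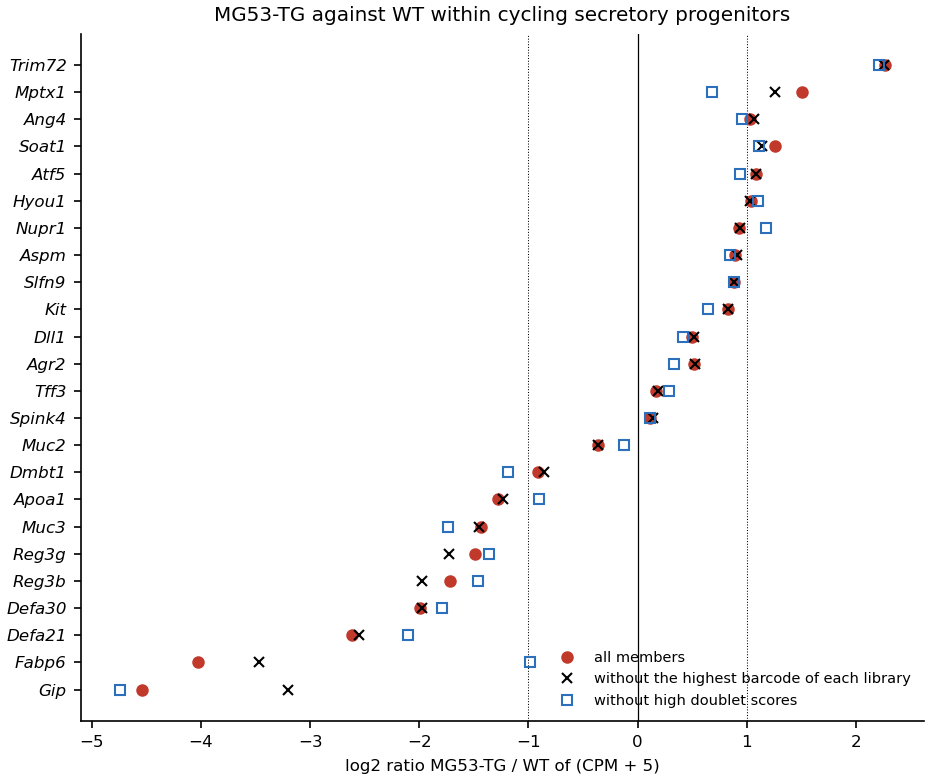
Log2 ratio of MG53-TG over WT (x axis, on CPM plus 5) for 24 genes among cycling secretory progenitors, from all members (red), without the barcode with most UMIs of the gene in each library (crosses) and without members with high doublet scores (open squares). Reg3b, Reg3g, Muc3 and Defa30 stayed under -1 in each case, whereas Fabp6 moved from -4.03 to -0.99 without high scores.

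Genes of amino acid supply and protein folding leaned towards higher levels in MG53-TG. Atf5, a factor of the response to amino acid shortage, had 30.2 CPM in WT and 69.8 in MG53-TG members, a log2 ratio of 1.21 (interval 0.94 to 1.49). Hyou1, a chaperone of the endoplasmic reticulum (ER), had 29.4 and 65.6 CPM, a log2 ratio of 1.16 (interval 0.88 to 1.44). Phgdh and Psat1, enzymes of serine synthesis, had 61.3 against 116 and 36.7 against 71.2 CPM. Hspa5, the main ER chaperone, had 544 and 771 CPM. Of 22 genes in this list, 21 lay above 0 with a median of 0.41, and 2 were at least 2-fold higher, where 62.9% of all genes lay above 0 and 0.17% were 2-fold higher. On the CPM plus 5 scale without high doublet scores, Atf5 was under 2-fold, at 0.94, and Hyou1 stood at 1.10. Atf5 had a ratio of 1.20 in cycling cells without Atoh1 as well, and Hyou1 of 0.31.

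Secretory factors leaned the same way, and 0 reached 2-fold. Of 11 factors measured, 11 lay above 0, against 62.9% of all genes, with a median log2 ratio of 0.46, and 0.41 without high doublet scores. Creb3l4 had a log2 ratio of 0.56 (interval 0.33 to 0.79), Klf4 of 0.49 (interval 0.38 to 0.60) and Spdef of 0.34 on the CPM plus 5 scale. Dll1 had a log2 ratio of 0.53 (interval 0.34 to 0.73) and Kit of 0.89 (interval 0.67 to 1.11), or 0.42 and 0.64 with CPM plus 5 once high scores were left out. The same ratio was 0.09 for Dll1 in cycling cells without Atoh1 and 0.14 in non-cycling Atoh1 cells. In MG53-TG more members carried several Atoh1 UMIs, as given above, and the part of that difference in these ratios was not tested.

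Goblet products showed small ratios between the libraries in these cells. Of 28 genes, 22 lay above 0, against 62.9% of all genes, the median was 0.13, and 0 differed 2-fold in either direction. Agr2 had a log2 ratio of 0.51 (interval 0.49 to 0.54), Tff3 of 0.17 (interval 0.16 to 0.18) and Muc2 of -0.37 (interval -0.40 to -0.33). Without high doublet scores the median was 0.29, Zg16 moved from 0.03 to 0.70, Agr2 from 0.51 to 0.33 and Muc2 from -0.37 to -0.12. Paneth products outside the gate's limit included 2 of 9 that were at least 2-fold higher (0.17% of all genes), Ang4, a secreted ribonuclease, with 376 and 773 CPM, whose log2 ratio of 1.03 was 0.96 without high doublet scores, and Mptx1, a pentraxin with 71 and 251 UMIs in 21 and 32 members, whose log2 ratio of 1.51 was 0.68 without high doublet scores. Ang4 pointed the other way in cycling cells without Atoh1, with a ratio of -0.67, and the same way in non-cycling Atoh1 cells, with 0.51. Soat1, which esterifies cholesterol, had 124 UMIs over 75 WT members and 334 over 129 MG53-TG members. Nupr1, a stress-induced nuclear protein also listed with Paneth genes, had 52.3 and 104 CPM.

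Mitotic and replication genes were slightly higher in MG53-TG members. Of 33 G2 and M genes, 31 lay above 0 (62.9% of all genes) with a median of 0.26, and of 25 S phase genes, 23 did with a median of 0.26, and 0 genes of either list reached 2-fold. Without high doublet scores both medians were 0.20. Aspm, which organises the spindle poles, had 37.6 and 74.2 CPM, a log2 ratio of 0.98 (interval 0.73 to 1.23), against 45.6 and 53.5 CPM in cycling cells without Atoh1. G2 and M genes took a median of 0.301% of the UMIs of a WT member and 0.400% of an MG53-TG member, and 0.423% and 0.468% without high doublet scores. The corresponding medians in cycling cells without Atoh1 were 0.334% and 0.342%.

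**Figure D5:**
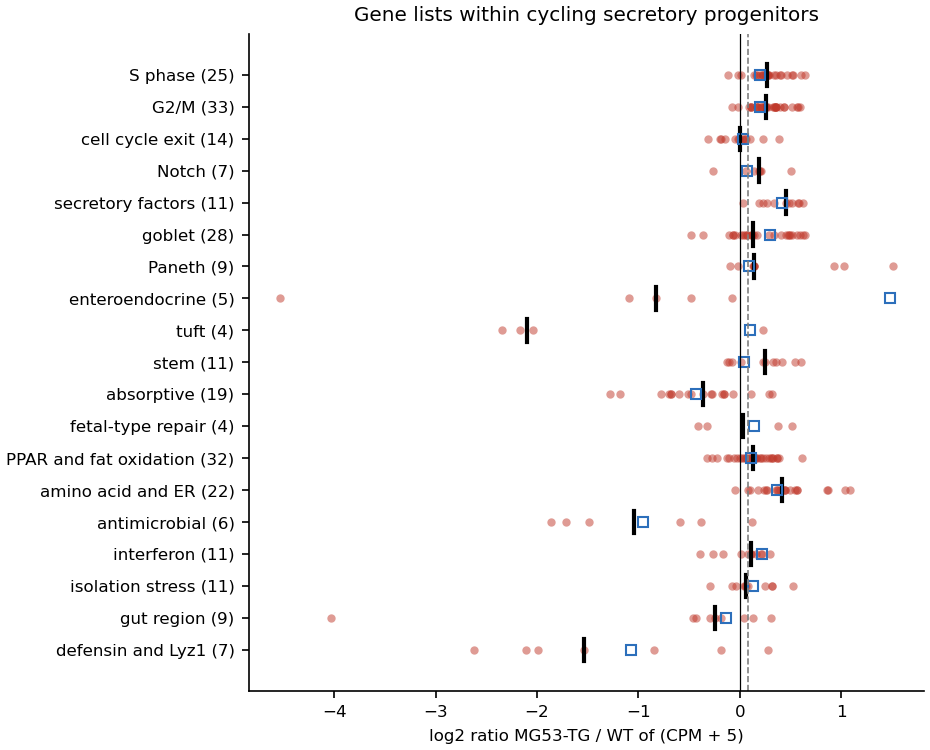
Log2 ratio of MG53-TG over WT (x axis, on CPM plus 5) in cycling secretory progenitors for the genes of 19 lists (y axis, number of genes measured in parentheses), 1 dot per gene, with the list median as a bar and the median without high doublet scores as an open square. The dashed line marks the median of 0.08 over 5866 genes, and the secretory factor, ER, S phase and G2/M medians lay above it while the absorptive, antimicrobial, defensin, enteroendocrine and tuft medians lay below.

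Genes of fatty acid oxidation and other targets of PPAR, the lipid-sensing nuclear receptors, stayed near the centre. Of 32 measured, 25 lay above 0 (62.9% of all genes) with a median log2 ratio of 0.13, and 0 differed 2-fold. Ppara, the receptor of fatty acid oxidation, had 46 and 43 UMIs in the members, a ratio whose interval ran from -0.73 to 0.53, so no difference was detectable at this depth. Interferon genes had a median of 0.11 over 11 genes and genes of isolation stress of 0.06 over 11, each with 0 genes differing 2-fold.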

How the data were processed

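The 2 droplet libraries were analysed, 1 per genotype. The authors deposited raw UMI counts per gene and barcode (mm10, 32285 genes). Per the file headers, the WT table came from Cell Ranger 4 and the MG53-TG table from 6.0.1; the submitters' notes name Seurat. Mapping options were not given in the sources used here. The WT table held all barcodes, whereas the lowest MG53-TG barcode had 500 UMIs.

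Kept barcodes had 1354 UMIs or more, 200 genes or more and no more than 25% mitochondrial UMIs, 7401 in WT with 120432342 UMIs and 5153 in MG53-TG with 98075562. The gate is given in the report. The members and gene lists were chosen with earlier results of these data known. Another 2 gates served for comparison within a library, cycling cells with Atoh1 at 0 and Atoh1 cells with at most 1 of the 8 cycling genes, with the same defensin and Cd3 limits.

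UMIs were summed over the cells of a gate and scaled to CPM. Ratios used a pseudocount of 5 CPM where a list or a count of genes is given, and raw CPM where an interval is given. Folds against other gates are raw CPM ratios. Intervals were exact (Clopper-Pearson for shares, Poisson for sums, conditional binomial for ratios), the difference of shares followed Newcombe's method. A gene was counted with at least 30 UMIs in total and 20 CPM in 1 library, and as different past 2-fold. Counts of genes over the lists used the same rule. The count rule and intervals were tested on simulated data.

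Named genes were those of the gate, up to 4 of each list with the highest CPM and up to 2 with the largest ratio, the 10 highest and 10 lowest ratios among genes with 50 CPM, and the same against each other gate. Genes of the fixed lists named beyond this rule (among them Spdef, Foxa2, Foxa3, Sox4, Dll4, Notch1, Hes1, Lgr5, Ascl2, Cdca7, Mib1, Adam10, Rbpj, Ddx60, Zbp1, Neurog3, Mxd4, Lcn2, Phgdh, Psat1, Ppara, Ern2 and H2-Aa), and Cdc25b and Gm20559, were chosen after their values were seen. Gene positions are from GENCODE M21 and promoters from RefSeq. Of 12 defensin and Lyz1 genes listed, 11 were in the tables. Some single genes are not reported here.

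Doublets were scored with Scrublet in scanpy 1.11.5. Its automatic threshold marked 1 WT and 2 MG53-TG cells, under 0.5%, and was not used, so doublets stayed in the main values. An alternative removed the highest scores at 0.8% per 1000 cells. Other alternatives varied the number of cycling genes, Atoh1 UMIs, mitochondrial limit, depth by thinning, scaling, pseudocount and minimum. Python 3.11.15, scipy 1.17.1 and numpy 2.4.6 were used.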

Additional observations from a re-analysis of the deposited data

Results flagged for a closer look

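Antibody genes ran in opposite directions in members and in cycling cells without Atoh1. The log2 ratio of MG53-TG over WT, on CPM plus 5, was 6.90 in members for Igkc and -7.45 in cycling cells without Atoh1, 4.67 and -4.64 for Igha, and 3.70 and -3.74 for Jchain. The difference was not tested. Without the highest barcode of each library, the ratios in members were -0.65 for Igkc, -0.13 for Igha and -0.05 for Jchain. Of 6941 Igkc UMIs in MG53-TG members, 6932 lay in 1 barcode, and of 23949 in WT cycling cells without Atoh1, 12222 lay in 1 barcode. Antibody genes are made by plasma cells and are not part of either gate. The part of such barcodes in the ratios of other genes was not tested.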

How the results depend on the processing

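The share of cycling cells with Atoh1 was higher in MG53-TG under each of the 8 alternatives run, and the share of all cells under each of the 7. The first difference was 5.03 points when cells were thinned to 1354 UMIs, where fewer molecules remain to be seen. The second was 0.757 points (interval 0.0789 to 1.45) when the gate was applied after thinning to 10000 UMIs. It was 0.485 points with up to 50% mitochondrial UMIs, a setting added once the data had been seen. There the filtered cells rose in number and the members hardly did. Why the limit kept different shares of the libraries was not tested. Genes at least 2-fold higher in MG53-TG numbered 10. They numbered 6 with at least 2 Atoh1 UMIs, 22 with members thinned to 10000 UMIs, 17 with no minimum and 6 without each gene's highest barcode, where the minimum was applied anew. Genes at least 2-fold lower numbered 31, 15 without high doublet scores and 51 with no minimum. Of those 15, 12 were among the 31. The cause was not tested, except that the counts with no minimum cover 15846 genes in place of 5866. The log2 ratio of Trim72 lay between 3.99 and 6.70 over its alternatives and rests on 2 WT UMIs. No paired analysis was possible because each genotype had 1 library. For the same reason no replicate could be left out, and sums of 5234477 and 5240644 UMIs over the members leave genes under 20 CPM with wide intervals.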

Other observations

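Cycling cells with Atoh1 that the defensin and Lyz1 limit kept out numbered 14 in WT and 7 in MG53-TG. They had medians of 4.31% and 2.97% goblet UMIs and of 54966.5 and 26151 UMIs per cell. A further 11 WT and 3 MG53-TG cycling Atoh1 cells were kept out by a Cd3 UMI, with medians of 5.22% and 4.20% goblet UMIs.

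Ern2, the ER stress sensor of mucus-secreting cells, stood at 99.3 CPM in WT and 137 in MG53-TG members against 2.95 and 3.29 in cycling cells without Atoh1. It was the only 1 of 22 amino acid and ER genes at least 2-fold above those cells in both libraries, a share of the list near the 4.12% of all genes. Of 4 genes measured from a list of fetal-type repair, Krt7 and Phlda1 were at least 2-fold above them and Anxa2 and Krt19 were not, where 4.12% of all genes were. Krt7 had 182 and 239 CPM against 56.5 and 66.6, and Anxa2 was at 0.989-fold and 0.858-fold. Of 13 interferon and antigen presentation genes measured against non-cycling Atoh1 cells, Cd74, H2-Aa and H2-Eb1 were at least 2-fold higher in both libraries, and Ddx60, Zbp1 and Ifi27l2b at least 2-fold lower, where 9.88% and 2.01% of all genes were. Cd74 had 515 and 391 CPM against 218 and 181. H2-Ab1, another class II gene, was in neither class, with log2 ratios of 0.28 and 0.19.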
